A study of Mus musculus with 3 samples.

Results

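SR proteins and hnRNPs are the 2 large families of RNA-binding proteins that decide which splice sites of a transcript are used. Their genes were taken by name from the gene table, as every row whose symbol was Srsf with a number (without *Srsf2*) or began with Hnrnp. The rule found 29 of 36172 rows, and 27 of them (10 SR and 17 hnRNP genes) had a read in at least 1 library, of 14145 genes with a read in any. The RNA came from LSK cells, lineage-negative bone marrow cells positive for Sca1 and c-Kit, a sort that enriches stem cells and early progenitors of blood, of C57BL/6 male mice at 3 months of age. There were 3 libraries, each 1 aliquot from 4 mice: *Calr* del10/WT mice and *Calr* ins2/WT mice, which are heterozygous CRISPR-Cas9 knock-ins with a frameshift in the calreticulin gene in all their cells, and *Calr* WT/WT mice, which carry neither allele. They are called del10, ins2 and WT here. Each genotype has 1 library, so the differences below lack replicates and carry no p-values.

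SR proteins carry RNA recognition motifs and a stretch rich in arginine and serine, bind exonic enhancers and recruit the splicing machinery to nearby sites. Many hnRNPs bind silencers and act against that recruitment, and members of both families also take part in mRNA export, stability and translation. Several control their own level through poison exons, whose inclusion sends the transcript to nonsense-mediated decay, so a gene count pools productive transcripts with others that are degraded. *Srsf2*, an SR gene recurrently mutated in myeloid neoplasms, is not analysed here.

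None of the genes in the set read for ratios differed over 2-fold between any pair of libraries. A normalized count is the deposited read count multiplied by the authors' scaling factor for that library, and a log2 ratio is taken on normalized count + 1. Ratios were read in a main set of 7073 genes, chosen for an average level across libraries no lower than the median of the genes with reads, and 26 of the 27 genes (9 SR and 17 hnRNP) were in it. Over 2-fold differences were thus 0 of 26 in every comparison. Of the main set as a whole, 15.3% of genes were over 2-fold higher and 10.2% over 2-fold lower in del10 than in WT, 15.7% were higher and 10.7% lower in ins2 than in WT, and 3.59% were higher and 4.03% lower in del10 than in ins2. *Srsf1* and *Hnrnpc*, about 1.6-fold to 1.7-fold higher in both knock-in libraries than in WT, had 95% intervals above 1 in both of these comparisons, which share the WT library. They were 2 of the 26, beside 6.66% of the main set with intervals above 1 in both. These intervals count estimated starting fragments of RNA in place of reads, as set out with the depth of the libraries.

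The sequences just before the starts of 4 genes are shown, chosen by their ratios against WT. *Srsf1*, *Hnrnpc* and *Hnrnpd* were the members with a log2 ratio over 0.5 against WT in both knock-in libraries. The intervals of *Hnrnpd* held 1 in both. *Hnrnpul1* was below WT in both, with an interval that held 1 in del10. In ins2 its interval lay below 1 but reached 1 when scaled by total reads. *Hnrnph1*, which was also below WT in both with an interval below 1 in ins2, has several annotated starts and is not shown. Each is the 150 bases upstream of a RefSeq start on GRCm38.p6 (the mm10 build), written 5′ to 3′ on the gene's strand, and capitals mark matches to a CCAAT box or to the GC box, GGGCGG, on either strand. A match on the other strand reads ATTGG for the first and, for the GC box, CCGCCC. The windows are chr11:88047223-88047372 on the plus strand for *Srsf1*, and on the minus strand chr14:52104022-52104171 for *Hnrnpc*, chr5:99978939-99979088 for *Hnrnpd* and chr7:25754760-25754909 for *Hnrnpul1*.
Srsf1: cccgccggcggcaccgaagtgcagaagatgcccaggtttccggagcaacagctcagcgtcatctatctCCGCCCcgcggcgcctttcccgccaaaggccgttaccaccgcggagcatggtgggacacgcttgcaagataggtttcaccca
Hnrnpc: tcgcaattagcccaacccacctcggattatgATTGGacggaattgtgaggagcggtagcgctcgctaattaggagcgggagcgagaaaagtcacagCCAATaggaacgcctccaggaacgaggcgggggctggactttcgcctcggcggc
Hnrnpd: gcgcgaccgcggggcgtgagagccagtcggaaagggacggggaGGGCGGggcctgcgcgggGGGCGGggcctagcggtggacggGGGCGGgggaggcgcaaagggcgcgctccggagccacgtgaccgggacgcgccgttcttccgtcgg
Hnrnpul1: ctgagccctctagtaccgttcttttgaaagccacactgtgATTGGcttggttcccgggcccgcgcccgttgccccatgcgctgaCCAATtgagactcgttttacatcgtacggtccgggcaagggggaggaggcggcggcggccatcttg
In these windows *Srsf1* and *Hnrnpd* held the GC box, and *Hnrnpc* and *Hnrnpul1* the CCAAT box on both strands.

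Across the family the promoters were rich in G and C. A promoter entry was found for 26 of the 27 genes (not for *Hnrnpul2*), with 37 starts in all, and the median GC content of the 150 bases was 66.7%, against 63.3% for 7389 promoters of main-set genes and 54% for all 32851 promoters. A GC box stood before at least 1 start of 19 of 26 genes (73.1%), against 60.5% of 5713 main-set genes with an entry and 31.3% of all 27025 genes. A CCAAT box stood before 14 of 26 (53.8%), against 32.0% and 27.7%. The letters TATAAA, the TATA box, were found only before *Srsf3* (3.85% of the genes, against 4.22% and 8.89%). Of the other motifs searched on both strands, CCGGAAG (an ETS core) was before 3 of 26 genes, TGCGCATGC (an NRF1 site) before 1 and TGACGTCA (a CRE) before 0. Genes with several starts had more windows, and overlapping windows share bases, so these shares are descriptions of the letters alone.

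The libraries held 11111698 reads in del10, 10967622 in ins2 and 9823095 in WT, of which the ribosomal precursor *Rn45s* took 15.0% to 16.7%, and 11037 to 13066 genes had a read. They were made from 5 ng of RNA, and in WT many genes share low counts near 61 reads, against 21 in ins2 and 16 in del10. These low counts were read from a smoothed histogram of counts, with a window of 5 to either side, and depended on its width: with windows of 1 to 12, del10 gave 9 to 17, ins2 12 to 22, and WT 55 to 65 except for 5 at a window of 4. Each such count was treated as the copies of a single starting fragment, which is an assumption, and the 95% exact binomial intervals below are of the fold in these fragments and cover counting error only. The count of *Calr* itself does not check the genotypes, because small frameshifts leave its transcript in place. The sort markers did not match the label evenly: *Ly6a*, which encodes Sca-1, had 51.9 normalized counts in del10, 120 in ins2 and 145 in WT. *Kit*, which encodes c-Kit, had 4177 in del10, 3082 in ins2 and 286 in WT. *Cd34*, a progenitor marker, had 1664 in del10, 727 in ins2 and 0 in WT. Of 12 B-lineage genes, 11 were over 2-fold lower in each knock-in library than in WT and none was at 0 in any library. All 6 basophil and mast cell genes of the main set, from a list of 8, were over 2-fold higher in each. Because these are bulk samples, fewer cells of a type and less RNA per cell cannot be told apart.

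Read on levels, the genes are among the abundant transcripts of these cells. Of the 27 with a read, 24 were in the upper quartile of detected genes, which holds 3537 of 14145. Per kilobase of transcript, over the mean of the 3 libraries, the highest were *Hnrnpa2b1* (4855 normalized counts per kb), *Srsf5* (3375), *Hnrnpf* (3125), *Hnrnpa1* (2593) and *Hnrnph1* (2467). The lowest of the main set on that scale were *Hnrnph3* (166) and *Srsf9* (229), so the range spanned over an order of magnitude. Summed over the family, SR genes took 0.291% of the reads without *Rn45s* in del10 (0.277% to 0.305% on fragments), 0.264% in ins2 (0.249% to 0.279%) and 0.246% in WT (0.221% to 0.274%). The hnRNP genes took 0.770% in del10 (0.747% to 0.792%), 0.708% in ins2 (0.683% to 0.733%) and 0.705% in WT (0.661% to 0.751%). The del10 share was the highest in both families, and its interval lay above that of WT for the SR genes and overlapped it for the hnRNP genes. Summed SR counts were 0.378 of summed hnRNP counts in del10, 0.372 in ins2 and 0.349 in WT.

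**Figure D1:**
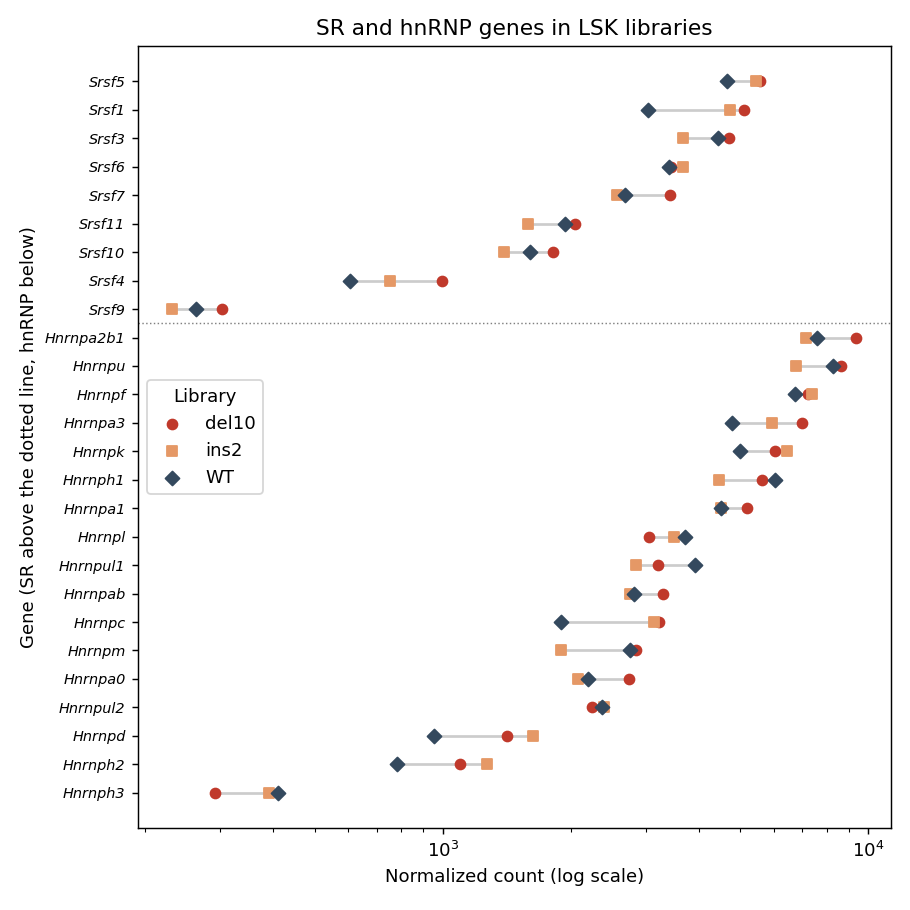
Normalized count (log axis) of each of the 26 SR and hnRNP genes of the main set in the del10, ins2 and WT library, 1 point per library, with the SR genes above the dotted line. The points of a gene mostly lie close together. The widest gaps on this axis include *Hnrnpd* (1414 in del10, 1631 in ins2 and 955 in WT), *Hnrnpc* (3226 in del10, 3141 in ins2 and 1901 in WT) and *Srsf1* (5117 in del10, 4738 in ins2 and 3033 in WT).

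Among SR proteins with a pair of RNA recognition motifs, *Srsf1* stood highest above WT. *Srsf1*, the founding SR protein, which promotes exon inclusion and acts as a proto-oncogene when overproduced, had 5117 normalized counts in del10, 4738 in ins2 and 3033 in WT. The log2 ratio was 0.75 in del10 against WT (fold 1.69, interval 1.24 to 2.37) and 0.64 in ins2 against WT (fold 1.56, interval 1.13 to 2.21), and both comparisons use the same WT library, in which *Srsf1* came to 45.2 fragments. The knock-in libraries were close to each other, at a log2 ratio of 0.11 in del10 against ins2 (0.91-fold to 1.29-fold). *Srsf5*, the most abundant SR gene by mean count, had 5574 in del10, 5441 in ins2 and 4654 in WT. *Srsf6*, its close relative, had nearly equal counts of 3444 in del10, 3666 in ins2 and 3399 in WT. *Srsf4*, the longest protein of the group, had 995 in del10, 754 in ins2 and 606 in WT, and its log2 ratio of 0.72 in del10 against WT rested on 9.03 fragments in WT (interval 0.81 to 3.77). *Srsf9*, a short relative of *Srsf1*, was low in every library, at 303 in del10, 232 in ins2 and 263 in WT.

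Among SR proteins with 1 RNA recognition motif, ins2 was the lowest library for each of the 4 genes of the main set, as it was for *Srsf9*. *Srsf3*, which also links splicing to polyadenylation and export, had 4707 normalized counts in del10, 3665 in ins2 and 4441 in WT. *Srsf7*, its nearest paralog and an export adaptor, had 3413 in del10, 2563 in ins2 and 2678 in WT. For both the fragment interval lay above 1 in del10 against ins2, at 1.06 to 1.56 for *Srsf3* (log2 ratio 0.36) and 1.06 to 1.67 for *Srsf7* (log2 ratio 0.41). Against WT, the log2 ratio of *Srsf3* was 0.08 for del10 and -0.28 for ins2, and the intervals of both genes held 1. *Srsf11*, a U-rich tract binder that works with the factor U2AF, had 2051 in del10, 1586 in ins2 and 1936 in WT. *Srsf10*, which represses splicing when dephosphorylated, had 1817 in del10, 1397 in ins2 and 1602 in WT. *Srsf12*, an SR-like antagonist of the other SR proteins, was listed at 0 in ins2 and WT and had 11.2 normalized counts in del10, under 1 estimated fragment.

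**Figure D2:**
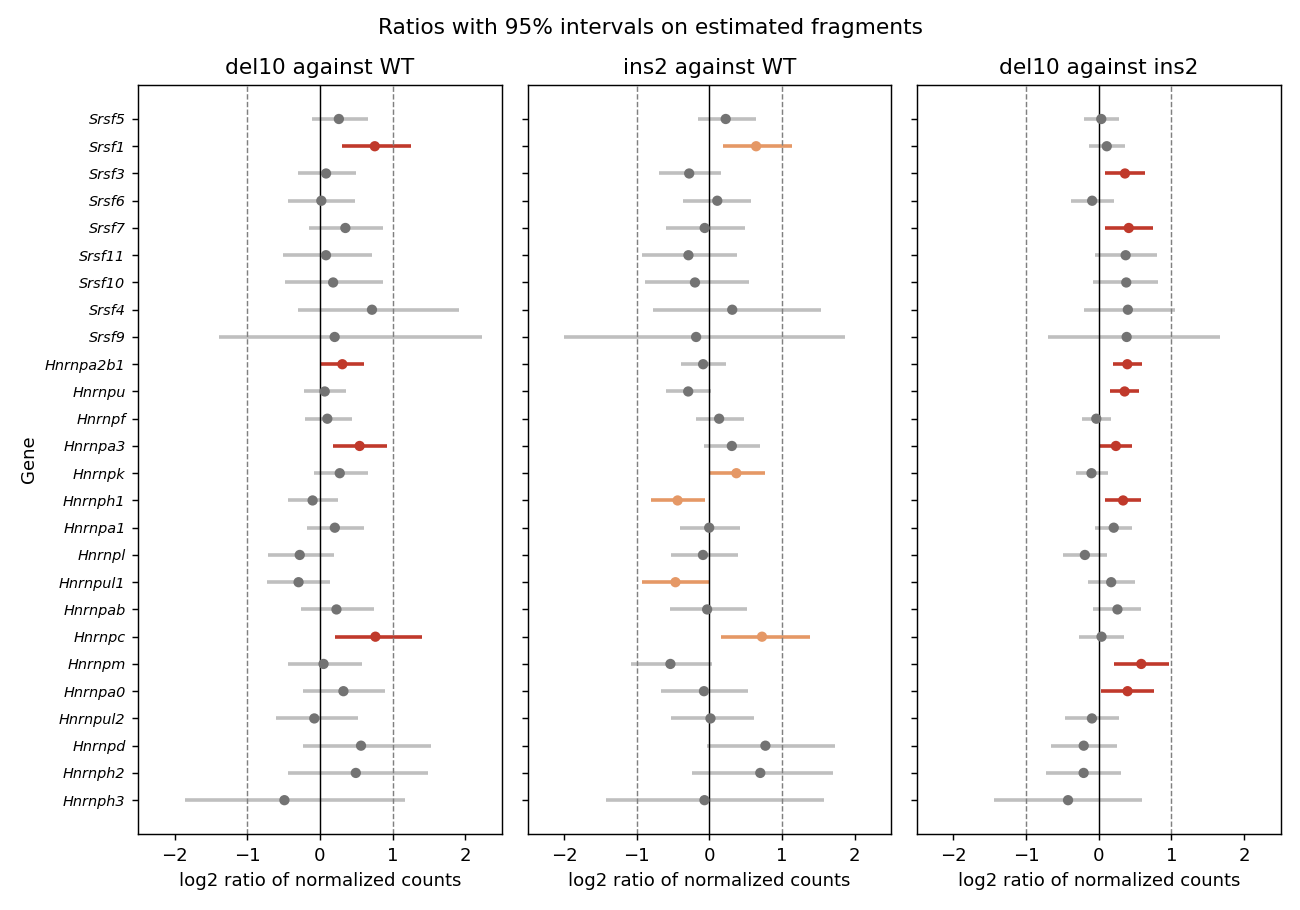
log2 ratio of normalized counts (points) with 95% exact binomial intervals on estimated fragments (bars) for 26 genes, in del10 against WT, ins2 against WT and del10 against ins2. Coloured genes have an interval off 1-fold (4, 5 and 8 genes) and dashed lines mark 2-fold, which no point reaches.

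The hnRNP A/B proteins bind UAG-rich silencers, and *Hnrnpa2b1* also reads marks of RNA methylation and sorts RNA into vesicles. *Hnrnpa2b1* had the highest mean count of all the genes, with 9379 in del10, 7141 in ins2 and 7576 in WT. Its log2 ratio was 0.31 in del10 against WT (fold 1.24, interval 1.01 to 1.53), -0.09 in ins2 against WT (0.94-fold, 0.76 to 1.18) and 0.39 in del10 against ins2 (fold 1.31, 1.147 to 1.504). *Hnrnpa3*, a less studied member of the group, had 7006 in del10, 5947 in ins2 and 4798 in WT, with log2 ratios of 0.55 in del10 against WT (fold 1.46, 1.13 to 1.89), 0.31 in ins2 against WT (fold 1.24, 0.95 to 1.62) and 0.24 in del10 against ins2 (1.18-fold, 1.01 to 1.37). Both genes were highest in del10. *Hnrnpa1*, the best known splicing repressor of the family, had 5199 in del10, 4505 in ins2 and 4511 in WT, so that ins2 and WT had nearly the same count (log2 ratio -0.0019, and 0.0078 when scaled by total reads). *Hnrnpab*, which binds AU-rich sequence, had 3298 in del10, 2759 in ins2 and 2818 in WT. *Hnrnpa0*, a regulator of the stability of inflammatory mRNAs, had 2743 in del10, 2083 in ins2 and 2192 in WT (log2 ratio 0.40 in del10 against ins2, interval 1.02 to 1.70). Reads of *Hnrnpa1* and *Hnrnpa3* can be split with processed pseudogenes, and the sources used here do not say how such reads were assigned.

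*Hnrnpc* forms tetramers on U-rich tracts of nascent RNA and competes there with U2AF. It had 3226 normalized counts in del10, 3141 in ins2 and 1901 in WT, with a log2 ratio of 0.76 in del10 against WT (fold 1.70, interval 1.15 to 2.65) and 0.72 in ins2 against WT (fold 1.65, interval 1.11 to 2.60). The WT library held it at 28.3 fragments, and in del10 against ins2 the log2 ratio was 0.04, or -0.0086 when scaled by total reads. *Hnrnpd* (AUF1), which binds AU-rich elements and speeds mRNA decay, had a similar order, with 1414 in del10, 1631 in ins2 and 955 in WT, but at 14.2 fragments in WT its intervals held 1 in both comparisons (0.85 to 2.88 in del10 and 0.98 to 3.32 in ins2). *Hnrnpm*, a GU-rich sequence binder that regulates exons in epithelial plasticity and innate immunity, had the reverse pattern between the knock-in libraries. Its counts were 2851 in del10, 1900 in ins2 and 2754 in WT, and the log2 ratio of 0.59 in del10 against ins2 (1.5-fold, interval 1.16 to 1.95) was the highest of the 26 genes in that comparison. In ins2 against WT it was -0.54, the lowest of the 26, with an interval of 0.47 to 1.02.

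The hnRNP F/H proteins bind runs of G and have opposite effects on exons by position, and their genes lay on both sides of WT. *Hnrnpf* had 7215 normalized counts in del10, 7383 in ins2 and 6725 in WT, with a log2 ratio of 0.10 in del10 against WT (1.07-fold, interval 0.86 to 1.35), 0.13 in ins2 against WT (1.10-fold, 0.88 to 1.39) and -0.03 in del10 against ins2 (0.98-fold, 0.85 to 1.13). *Hnrnph1* had 5620 in del10, 4454 in ins2 and 6028 in WT, below WT in both, with an interval of 0.58 to 0.96 in ins2 against WT and of 0.74 to 1.19 in del10 against WT. Its X-linked relative *Hnrnph2* lay on the other side of WT, with 1101 in del10, 1271 in ins2 and 782 in WT, and intervals that held 1 in all 3 comparisons. The count of *Hnrnph1* was thus 5.10 times that of *Hnrnph2* in del10, 3.50 times in ins2 and 7.71 times in WT, and the pair have near-identical coding sequence, so this split depends on how shared reads were assigned. *Hnrnph3*, a shorter relative, had 291 in del10, 391 in ins2 and 409 in WT, the last from 6.10 fragments.

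The other hnRNP genes were within 0.5 of WT on the log2 scale in both knock-in libraries. *Hnrnpk*, which binds C-rich RNA and DNA through KH domains and whose loss of 1 copy is linked to myeloid neoplasia, had 6028 in del10, 6458 in ins2 and 4990 in WT. Its log2 ratios were 0.27 in del10 against WT (1.21-fold, interval 0.94 to 1.58), 0.37 in ins2 against WT (1.29-fold, 1.01 to 1.70) and -0.10 in del10 against ins2 (0.93-fold, 0.80 to 1.09). *Hnrnpu*, the nuclear scaffold protein SAF-A, had 8652 in del10, 6757 in ins2 and 8266 in WT, with log2 ratios of 0.07 in del10 against WT (1.05-fold, 0.86 to 1.29), -0.29 in ins2 against WT (0.82-fold, 0.66 to 1.02) and 0.36 in del10 against ins2 (1.28-fold, 1.11 to 1.47). Its relatives differed from it: *Hnrnpul1*, which acts in DNA end resection, had 3203 in del10, 2843 in ins2 and 3927 in WT (interval 0.53 to 0.99 in ins2 against WT), and *Hnrnpul2* had 2242 in del10, 2392 in ins2 and 2366 in WT. *Hnrnpl*, which binds CA repeats and silences exons of the leukocyte phosphatase gene *Ptprc*, had 3059 in del10, 3490 in ins2 and 3708 in WT. *Hnrnpr* and the pseudogene *Hnrnpa1l2-ps* were listed at 0 in all 3 libraries. *Xbp1*, which most cells express, was also listed at 0 in all 3, so a 0 in this table may not be an absence of transcript.

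Taking the 26 genes as a group, the median log2 ratio was 0.20 in del10 against WT (interval of the median 0.07 to 0.32, range -0.49 to 0.76), -0.05 in ins2 against WT (-0.18 to 0.23, range -0.54 to 0.77) and 0.22 in del10 against ins2 (-0.03 to 0.37, range -0.42 to 0.59). For the main set as a whole the median was 0.04 in del10 against WT, 0.04 in ins2 against WT and 0.01 in del10 against ins2. In del10 against WT, 21 of 26 ratios were above 0, which included 9 of 9 SR genes (20 and 8 when scaled by total reads or by median-of-ratios size factors, where *Srsf6* turned negative). In ins2 against WT, 11 were above 0 and 15 below (12 and 14 by total reads, 10 and 16 by median-of-ratios factors). In del10 against ins2, 18 were above 0 and 8 below (16 and 10 by total reads). Of the 7073 main-set genes, 3683 were above 0 in del10 against WT, 3692 in ins2 against WT and 3586 in del10 against ins2. Of the 3537 genes of the upper quartile, 1788, 1792 and 1844 were above 0 in the same order. SR genes had a median of 0.20 in del10 against WT, -0.06 in ins2 against WT and 0.37 in del10 against ins2. For hnRNP genes the median was 0.20 in del10 against WT, -0.03 in ins2 against WT and 0.17 in del10 against ins2. Genes share their library, so these medians describe 3 libraries and are not repeated measurements.

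**Figure D3:**
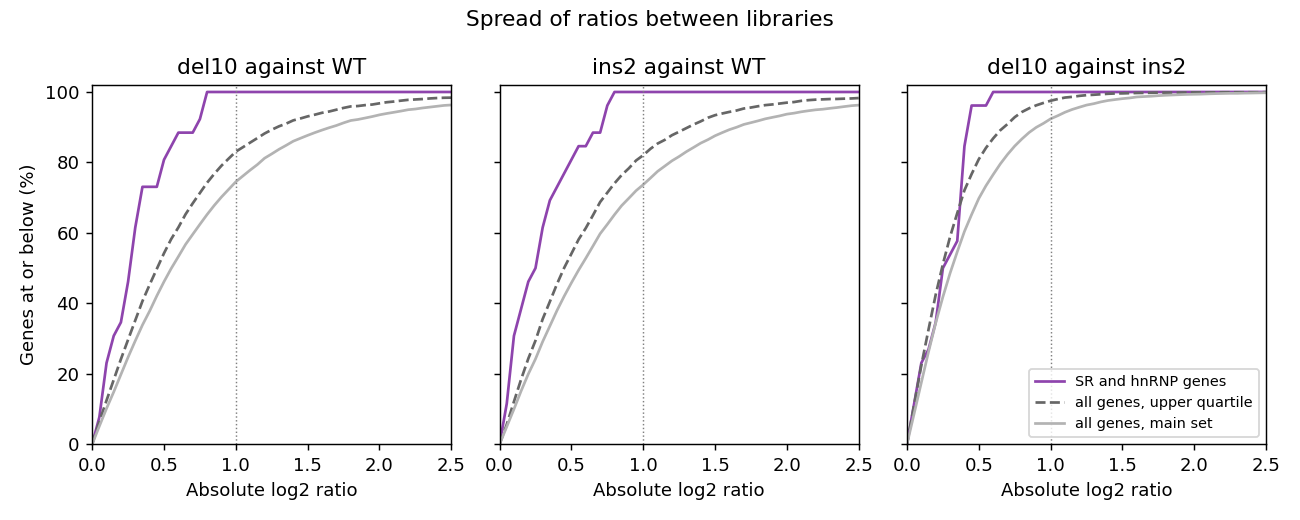
Share of genes (%) at or below each absolute log2 ratio, for the 26 SR and hnRNP genes, the 3537 genes of the upper quartile and the 7073 genes of the main set, in each comparison, with 2-fold as a dotted line. Against WT the line of the SR and hnRNP genes lies left of both others (medians of 0.27 and 0.25). In del10 against ins2 it lies right of the upper quartile from 0.15 to 0.35 and left of it from 0.4, with medians of 0.25 and 0.24.

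The spread against WT was under that of both backgrounds. The median absolute log2 ratio of the 26 genes was 0.27 in del10 against WT and 0.25 in ins2 against WT, beside 0.55 and 0.56 over the main set and 0.45 and 0.45 over the upper quartile. The upper quartile, which begins at a mean normalized count of 654.1, is the closer background for genes of this abundance but is not matched to them in level. In it 9.84% were over 2-fold higher and 7.10% lower in del10 than in WT, and 9.95% higher and 8.0% lower in ins2 than in WT. Between del10 and ins2 the 26 genes had a median absolute log2 ratio of 0.25, close to the 0.24 of the upper quartile, where 1.24% were over 2-fold higher and 1.24% lower. Just above the median the 26 genes were wider: 57.7% were at or below an absolute log2 ratio of 0.35, beside 65.6% of the upper quartile. From 0.4 upward they were narrower: 84.6% were at or below 0.4, beside 72.1%, and 96.2% were within 0.5, beside 80.9%. The 90th percentile of the absolute log2 ratio was 0.41 for the 26 and 0.67 for the upper quartile.

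Fragment intervals lay above 1 for 4 of the 26 genes in del10 against WT (*Srsf1*, *Hnrnpa2b1*, *Hnrnpa3* and *Hnrnpc*) and below 1 for 0, beside 10.9% and 10.2% of the main set and 15.1% and 13.7% of the upper quartile. In ins2 against WT they lay above 1 for 3 (*Srsf1*, *Hnrnpc* and *Hnrnpk*) and below 1 for 2 (*Hnrnph1* and *Hnrnpul1*), beside 10.5% and 10.2% of the main set and 14.2% and 14.5% of the upper quartile. Counts of 2 to 4 of 26 were near or under these shares, and the 0 of 26 below 1 in del10 against WT was under both. With other scalings some of these intervals reached 1: *Hnrnpa2b1* in del10 against WT under both alternatives, *Hnrnpul1* in ins2 against WT by total reads and *Hnrnpk* in ins2 against WT by median-of-ratios factors, which also put *Hnrnpu* below 1 there. In del10 against ins2, 8 genes lay above 1 (*Srsf3*, *Srsf7*, *Hnrnpa2b1*, *Hnrnpu*, *Hnrnpa3*, *Hnrnph1*, *Hnrnpm* and *Hnrnpa0*) and 0 below, beside 8.6% and 7.8% of the main set and 11.6% and 9.22% of the upper quartile, and 6 of them without *Hnrnpa3* and *Hnrnpa0* when scaled by total reads. *Hnrnpa2b1* came to 576 fragments in del10, 346 in ins2 and 113 in WT. These counts rest on the estimated fragment size. With a window of 4 in that histogram, chosen after seeing the data, 12 of the 26 lay above 1 and 2 below in del10 against WT. In ins2 against WT, 7 lay above and 5 below. Shares of the main set were not counted at that window.

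**Figure D4:**
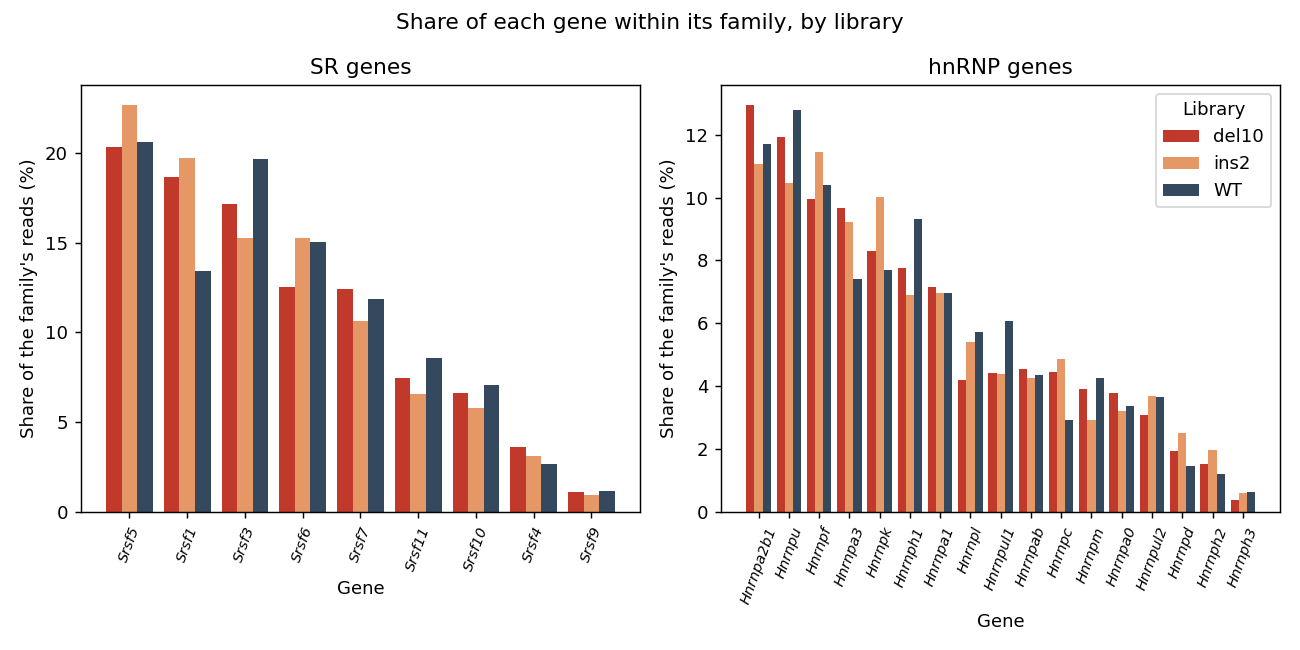
Share of the reads of its family (%) taken by each SR gene (left) and each hnRNP gene (right) in the del10, ins2 and WT library, with genes in order of mean count. *Srsf1* took 18.7% of SR reads in del10, 19.7% in ins2 and 13.4% in WT, while most other shares differed less.

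Within each family the make-up shifted at a few genes. *Srsf1* took 18.7% of SR reads in del10, 19.7% in ins2 and 13.4% in WT, where it ranked after *Srsf5*, *Srsf3* and *Srsf6*. In both knock-in libraries it ranked second to *Srsf5*. *Hnrnpa3* took 9.66% of hnRNP reads in del10, 9.21% in ins2 and 7.42% in WT, and *Hnrnpc* 4.45% in del10, 4.87% in ins2 and 2.94% in WT. In the other direction, *Hnrnph1* took 7.75% in del10, 6.90% in ins2 and 9.32% in WT, and *Hnrnpul1* 4.42% in del10, 4.41% in ins2 and 6.07% in WT. *Hnrnpu* was the highest hnRNP gene in WT by count, *Hnrnpf* in ins2 and *Hnrnpa2b1* in del10.

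Many of these genes have annotated transcripts that would be degraded. In GENCODE vM21, 15 of the 27 genes with a read (55.6%) had at least 1 transcript marked for nonsense-mediated decay, beside 31.9% of 6747 main-set genes, and 8 of 10 SR genes did. A retained-intron transcript was annotated for 18 of 27 (66.7%), beside 65.8%. Of the genes described above, *Srsf1* had 2 annotated decay transcripts, *Hnrnpd* 4 and *Hnrnpc* 0. The deposited values are per gene, so whether the extra *Srsf1* reads came from the coding or the decay form cannot be told apart.

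Genes that act with the families were read from 6 lists of 94 genes, 77 of them in the main set. Over 2-fold differences were found for 7 higher and 1 lower in del10 against WT, beside 15.3% and 10.2% of the main set. In ins2 against WT they were 5 higher and 1 lower, beside 15.7% and 10.7%. In del10 against ins2 there were 0 in either direction, beside 3.59% and 4.03%. The median was 0.12 in del10 against WT, 0.06 in ins2 against WT and 0.11 in del10 against ins2. The kinases and phosphatase regulators of SR proteins had a median of -0.22 for del10 and -0.20 for ins2 against WT over 10 genes, and held both directions. *Srpk1*, the main cytoplasmic SR kinase, had 1301 normalized counts in del10, 1135 in ins2 and 612 in WT (log2 ratio 1.09 in del10 against WT, interval 1.08 to 4.89). *Clk2*, a nuclear SR kinase, had 465 in del10, 776 in ins2 and 997 in WT (log2 ratio -1.10, interval 0.24 to 0.94), and *Clk4*, a kinase of the same family, had 801 in del10, 796 in ins2 and 1422 in WT. Importers of the proteins gave 3 genes: *Tnpo1*, which carries hnRNP A1 into the nucleus, had 3014 in del10, 2340 in ins2 and 4308 in WT (intervals of 0.53 to 0.95 in del10 and 0.40 to 0.75 in ins2 against WT). *Tnpo2*, its close relative, had 834 in del10, 720 in ins2 and 1147 in WT. *Tnpo3*, which carries SR proteins, had 1239 in del10, 1365 in ins2 and 992 in WT.

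SR-related proteins had medians of 0.12 in del10 and -0.04 in ins2 against WT over 18 genes. *Luc7l3*, a U1-associated protein, had 841 in del10, 1130 in ins2 and 407 in WT. *Rnps1*, a part of the exon junction complex, had 1090 in del10, 705 in ins2 and 551 in WT. *Scaf8*, which binds the tail of RNA polymerase II, had 1625 in del10, 1882 in ins2 and 2632 in WT. The U1 and Sm proteins had the highest median of the lists in del10 against WT, at 0.62 over 12 genes, with 0.22 in ins2 against WT, but at few fragments. The 3 named by the rule are subunits of the Sm ring: *Snrpf* had 432 in del10, 425 in ins2 and 82.5 in WT. *Snrpd3* had 338 in del10, 197 in ins2 and 123 in WT. *Snrpd2* had 595 in del10, 373 in ins2 and 231 in WT. The interval of *Snrpf* in del10 against WT was 1.04 to 259. Other hnRNP-like proteins had a median of 0.31 in del10 against WT and of 0.12 in ins2 against WT over 23 genes, with *Pcbp1*, a poly(C)-binding relative of *Hnrnpk*, at 2050 in del10, 1922 in ins2 and 836 in WT (interval 1.41 to 5.07 in del10 against WT). *Hnrpll*, a paralog of *Hnrnpl* that acts on the same *Ptprc* exons, had 484 in del10, 416 in ins2 and 121 in WT. *Rbmx*, which encodes hnRNP G, had 652 in del10, 806 in ins2 and 354 in WT. The 11 other regulators had a median of -0.15 in del10 against WT and of 0.08 in ins2 against WT. *Tia1*, which stabilises U1 at weak sites, had 943 in del10, 1183 in ins2 and 1842 in WT. *Qk*, which encodes the RNA-binding protein Quaking, had 2755 in del10, 2667 in ins2 and 3886 in WT, and *Rbm4*, which acts on tissue-specific exons, had 608 in del10, 915 in ins2 and 794 in WT.

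**Figure D5:**
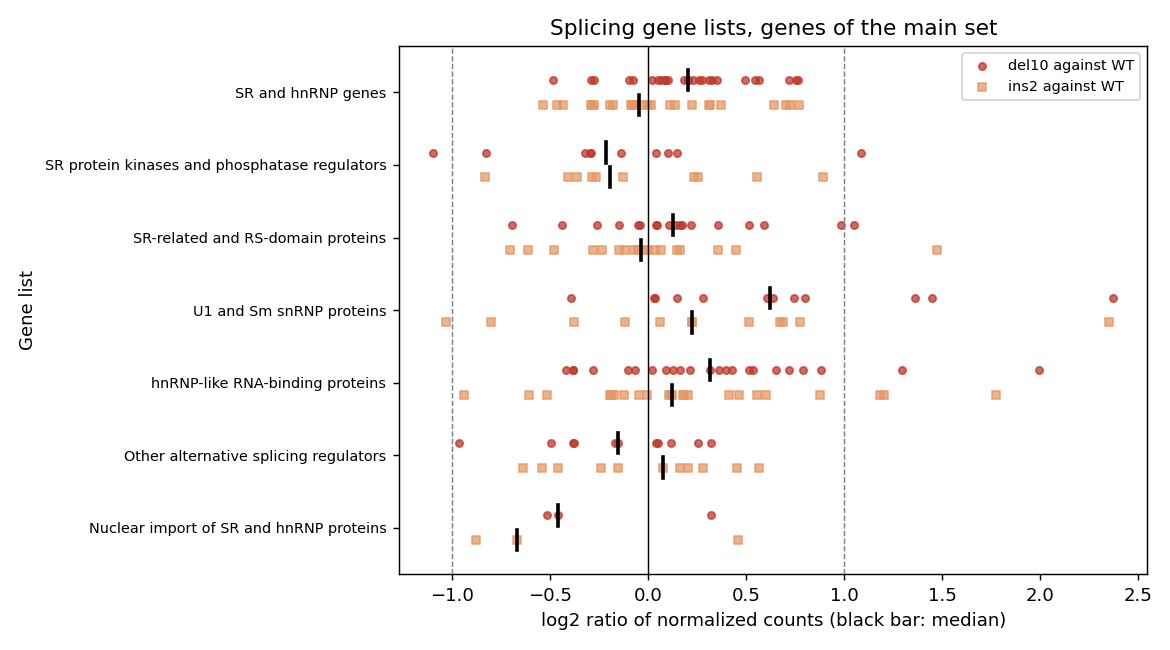
log2 ratio of normalized counts against WT for each main-set gene of the SR and hnRNP families and of 6 lists of related splicing genes, with circles for del10, squares for ins2 and black bars for medians. No SR or hnRNP gene passes the dashed 2-fold lines, while *Srpk1*, *Clk2*, *Snrpf* and *Hnrpll* do in del10.

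Markers of the sorted cells and of other cells also differed in the same comparisons. The 12 B-lineage genes summed to 14228 normalized counts in del10, 15791 in ins2 and 58289 in WT, with a median log2 ratio of -2.05 for del10 and -2.03 for ins2 against WT. The 8 basophil and mast cell genes summed to 35147 in del10, 25565 in ins2 and 2188 in WT, with *Ms4a2* at 0 in all 3 libraries and *Cma1* at 0 in del10 and WT. Of the LSK list, *Cd34* and *Procr* were listed at 0 in WT, and *Procr* was at 0 in ins2 as well. *Flt3* of that list had 1533 in del10, 1682 in ins2 and 71.5 in WT. *Cd48* (538 in del10, 819 in ins2 and 782 in WT) and *Slamf1* (124, 40.3 and 107) were not lowest in WT. Between the knock-in libraries the T and NK cell genes differed: 5 of 5 in the main set, from a list of 8, were over 2-fold lower in del10 than in ins2, and the 8 summed to 4879 in del10, 12323 in ins2 and 4432 in WT. The 6 erythroid genes summed to 2684 in del10, 1628 in ins2 and 4455 in WT, though *Klf1* (464 in del10, 113 in WT) and *Epor* (109 and 1.10) were higher in del10. The 8 neutrophil and monocyte genes summed to 3366 in del10, 2425 in ins2 and 1595 in WT, with *S100a8*, *Camp* and *Ltf* at 0 in all 3. Most of that sum was *Mpo* (2972 in del10, 1581 in ins2 and 1034 in WT). *Elane* went the other way, with 129 in del10, 104 in ins2 and 418 in WT. The part of the mix of cells in the levels of SR and hnRNP genes was not tested.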

How the data were processed

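The members and gene lists were chosen with earlier results of these data known. Reads were trimmed, mapped to mm10 and assigned to RefSeq genes by the authors. Tools in the submitters' processing notes are Bowtie2 2.2.3, TopHat2 2.1.1, Trimmomatic 0.32 and bcl2fastq 2.20. The authors deposited an estimated count per gene (a whole number, to within 0.001, for 35.3% to 48.7% of genes with reads) and a log2 value normalized by TMM (trimmed mean of M-values). One factor per library (1.02 in del10, 0.984 in ins2 and 1.10 in WT) turned the deposited counts into the deposited log2 values to within 1.40e-06. The sources used here do not say whether counting used strand or removed duplicates.

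Ratios used a pseudocount of 1, and the main set a mean normalized count of at least 215.3. Counts were divided by the commonest low count of each library (sought between 5 and 150 reads, moving mean over 5 counts on each side), rounded, and given 95% Clopper-Pearson intervals. The steps were tested on simulated data drawn in multiples of the same low counts, so the test could not check the fragment size. Lengths are means of GENCODE vM21 transcripts. Promoters are RefSeq's on GRCm38.p6, and shares of genes with a motif count a gene when any of its starts has it. The interval of a median is from order statistics.

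By the rule, every member was named with its levels, folds and intervals were given for the 5 of highest mean count and for any past 2-fold in the main set, and each list gave the 3 main-set genes with the largest change in del10 against WT. Other members given with intervals, and *Xbp1*, were chosen after their values were seen. *Sfrs18*, *Naa38* and *Rod1* were matched as older symbols of *Pnisr*, *Lsm8* and *Ptbp3*. One marker of the LSK list, and the list's sum, are not reported here. All 3 libraries were mapped to their columns by name, with 0 columns left over. Software was SciPy 1.17.1, pandas 2.3.3, NumPy 2.4.6 and matplotlib 3.10.9 under Python 3.11.15.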

Additional observations from a re-analysis of the deposited data

How the results depend on the processing

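The medians of the 26 genes stayed within their intervals under other pseudocounts, scalings and filters and with the mean in their place. All single-gene ratios stayed within their fragment intervals under other pseudocounts and scalings, but this check could hardly fail. A scaling moves all genes of a comparison by nearly the same amount. By total reads the main-set median in del10 against WT went from 0.041 to 0.0037. Fragment intervals were wider, such as 0.38 to 4.66 for *Srsf9* there. Without a filter, *Srsf12* was past 2-fold, which gave 1 gene higher in del10 than in WT and 1 higher in del10 than in ins2. At a threshold of 1.5-fold, 3 genes were higher in del10 than in WT, 4 in ins2 than in WT and 1 in del10 than in ins2, and at 3-fold none. Shares of the main set are not given at exactly these thresholds. An absolute log2 ratio of 0.6 is just over 1.5-fold. At or below it were 88.5% of the 26 genes and 53.3% of the main set in del10 against WT. The shares were 84.6% and 52.8% in ins2 against WT, and 100% and 76.6% in del10 against ins2. Intervals on reads treat copies of a fragment as independent. They lay above 1 for 17 genes and below for 4 in del10 against WT, and above for 10 and below for 9 in ins2 against WT. In del10 against ins2 they lay above for 16 and below for 7. Of the 7073 main-set genes, 3165 lay above and 2836 below in del10 against WT, and 3162 above and 2864 below in ins2 against WT. In del10 against ins2, 2714 of them lay above and 2561 below. Scaling by total reads left 1 gene (*Hnrnph1*, without *Hnrnpul1*) below 1 in ins2 against WT. Other widths of the moving mean, chosen after seeing the data, moved the estimated fragment. At 4 counts on each side, with 5 reads a fragment in WT, 12 genes lay above 1 and 2 below in del10 against WT, and 7 above and 5 below in ins2 against WT. At 11 counts on each side, 4 lay below 1 in ins2 against WT. Shares of the main set were not counted at either width. Against WT the precision is set by the WT library, where 1 fragment stood for about 61 reads. There the genes came to between 3.92 (*Srsf9*) and 123 fragments (*Hnrnpu*). In del10 against ins2 it rests on about 16 and 21 reads a fragment. A difference whose interval holds 1 was not detected at this depth, which does not show that it is absent. No paired analysis was possible because each genotype has 1 library.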
